A study of Rattus norvegicus with 6 samples.

Results

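Bile acids are made from cholesterol in the hepatocyte, joined to taurine or glycine, pumped into the bile canaliculus and taken back up from portal blood. The genes described here carry out these steps, and were listed by name with earlier results of these data known. The list held Cyp7a1 and Cyp8b1 of the classic synthesis pathway, Cyp27a1 and Cyp7b1 of the acidic pathway, and Slc27a5 and Baat for conjugation. It also held Abcb11 and Abcb4 for export into bile, and Slc10a1 and Slc51b for transport across the sinusoidal membrane. Of the 10 listed genes, 9 were matched to a probe through its transcript accession, out of 15284 genes named on the array. They had 11 probes among 61573: Cyp7b1 and Slc27a5 had 2 each and the other 7 genes 1 each. No probe was matched to Slc51b, the small subunit of the exporter OSTalpha/beta, so it was not analysed here. All 9 genes passed the filter on dim probes and were tested.

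Livers came from male Sprague-Dawley rats, Crl:CD(SD), bought at 5 weeks of age and kept on a basal diet. One group was given corn oil, the vehicle (n = 3), and the other received 1000 mg/kg/day of BBMP, the brominated diol 2,2-bis(bromomethyl)-1,3-propanediol that is used as a flame retardant (n = 3). The labels give the time as 28 days in the series design and as 9 weeks in the treatment protocol. Neither the hour of sampling nor the feeding state is given in the sources used here. Each rat had its own 1-colour Agilent array. Values are log2 of the background-subtracted signal minus log2 of that array's 75th percentile, so a level of 0 is the signal of the 75th percentile probe and a difference of 1 is a doubling. Levels of different probes are not comparable with each other.

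Synthesis is set mainly by feedback. Bile acids bind the nuclear receptor FXR, encoded by Nr1h4, which induces the repressor SHP, encoded by Nr0b2. SHP in turn lowers transcription of Cyp7a1, the rate-limiting enzyme, and of Cyp8b1. A hormone from the intestine acts through the receptor Fgfr4 with its partner Klb to the same end. FXR also induces the canalicular pump Abcb11, and Cyp7a1 is known to follow a daily rhythm.

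Between 60.1% and 64.4% of the probes on an array had a signal well above background, and the small number of arrays limits the precision. Corn oil 2 stood apart from the other corn oil livers, with a score of -50.84 on the main component of variation where corn oil 1 and 3 had -9.60 and -14.82. BBMP 1, 2 and 3 had 27.47, 28.70 and 19.09. This component, with 32.9% of the variance, thus also separated the groups. Each group had a slide and a scan of its own, so that effects of the slide or scan and of BBMP cannot be told apart. The labelled tissue was checked on hepatocyte markers: 8 of 8, albumin among them, were well above background on all arrays, with mean log2 levels of 8.92 to 9.05 in corn oil and 8.85 to 9.07 in BBMP livers. Cholangiocyte markers, 7 of 8 tested, had mean log2 levels of -2.21 to -1.94 and -2.52 to -1.88. In a liver sample, fewer cells of a type and less RNA per cell cannot be told apart.

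The upstream sequences of 4 of the genes are shown because they pair the widest differences between the groups with the narrowest among genes whose sequence was at hand. Cyp8b1 and Slc27a5 had 2 of the widest differences, Slc10a1 and Cyp27a1 2 of the smallest. Each is the 250 bases before the gene's start in RefSeq, build GRCr8, written 5′ to 3′ on the gene's strand, with capitals for AGGTCA, the half-site that many nuclear receptors bind, or its reverse complement TGACCT.
Cyp8b1, chr8:130457593-130457842, minus strand: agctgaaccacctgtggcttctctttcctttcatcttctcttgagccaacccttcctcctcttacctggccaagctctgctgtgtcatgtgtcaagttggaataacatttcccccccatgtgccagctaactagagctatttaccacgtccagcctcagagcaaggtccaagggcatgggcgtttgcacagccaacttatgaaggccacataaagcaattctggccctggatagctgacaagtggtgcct
Slc27a5, chr1:82699336-82699585, minus strand: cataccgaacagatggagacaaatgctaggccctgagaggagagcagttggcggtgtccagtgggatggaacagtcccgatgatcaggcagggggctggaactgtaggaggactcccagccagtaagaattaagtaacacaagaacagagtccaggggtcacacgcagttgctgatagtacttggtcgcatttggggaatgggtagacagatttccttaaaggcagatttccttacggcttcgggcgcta
Slc10a1, chr6:106357945-106358194, minus strand: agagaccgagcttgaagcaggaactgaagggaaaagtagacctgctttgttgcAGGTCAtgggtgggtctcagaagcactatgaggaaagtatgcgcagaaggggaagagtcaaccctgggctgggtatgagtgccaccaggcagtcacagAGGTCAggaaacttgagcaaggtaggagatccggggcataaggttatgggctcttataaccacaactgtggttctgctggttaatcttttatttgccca
Cyp27a1, chr9:83713282-83713531, plus strand: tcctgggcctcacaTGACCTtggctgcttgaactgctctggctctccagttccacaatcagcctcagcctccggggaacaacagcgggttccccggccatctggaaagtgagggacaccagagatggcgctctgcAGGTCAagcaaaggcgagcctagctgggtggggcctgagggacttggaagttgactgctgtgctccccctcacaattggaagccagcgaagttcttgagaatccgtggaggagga
An upstream sequence was matched for 7 of the 10 genes. Cyp7a1, Cyp7b1 and Abcb11 had no entry. The half-site, searched on both strands, lay in 3 of the 7, namely Cyp27a1, Slc10a1 and Slc51b, and in 14.1% of 33469 such windows. Cyp27a1 and Slc10a1 held 2 copies each. Baat and Abcb4, whose sequences are not shown, also had small differences, 0.04 and 0.09, and held 0 copies. The sequences shown thus do not represent all genes with small differences. Whether the half-site goes with the size of a difference was not tested. The inverted repeat with 1 base between the copies, AGGTCA then any base then TGACCT, which is the usual form of the FXR element and includes the half-site, lay in 0 of the 7 and in 0.0269% of the windows. These matches describe the letters only.

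The comparison asks whether genes of bile acid handling differ in the liver after BBMP. None of the 9 tested genes passed limma's adjusted p of 0.05 over 28112 features, in either direction, where 0.00711% of features did. At an unadjusted p under 0.05 there were 0 of 9 against 10.8% of all features. An unmoderated unequal-variance test called 0 of 28111 features after adjustment, and so could single out no gene. The groups overlapped for all 9 genes, while they did not overlap for 17.9% of features. The difference was above 0 for 5 genes and below 0 for 4, from -0.57 to 0.52 on the log2 scale, with a median of 0.02 against -0.01 over all features. Missing the threshold is no evidence that a gene was unaffected. The intervals given below say how large a difference between the groups the spread between rats leaves room for. They do not cover an effect of the slide or scan, which could hide or mimic one of BBMP.

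**Figure D1:**
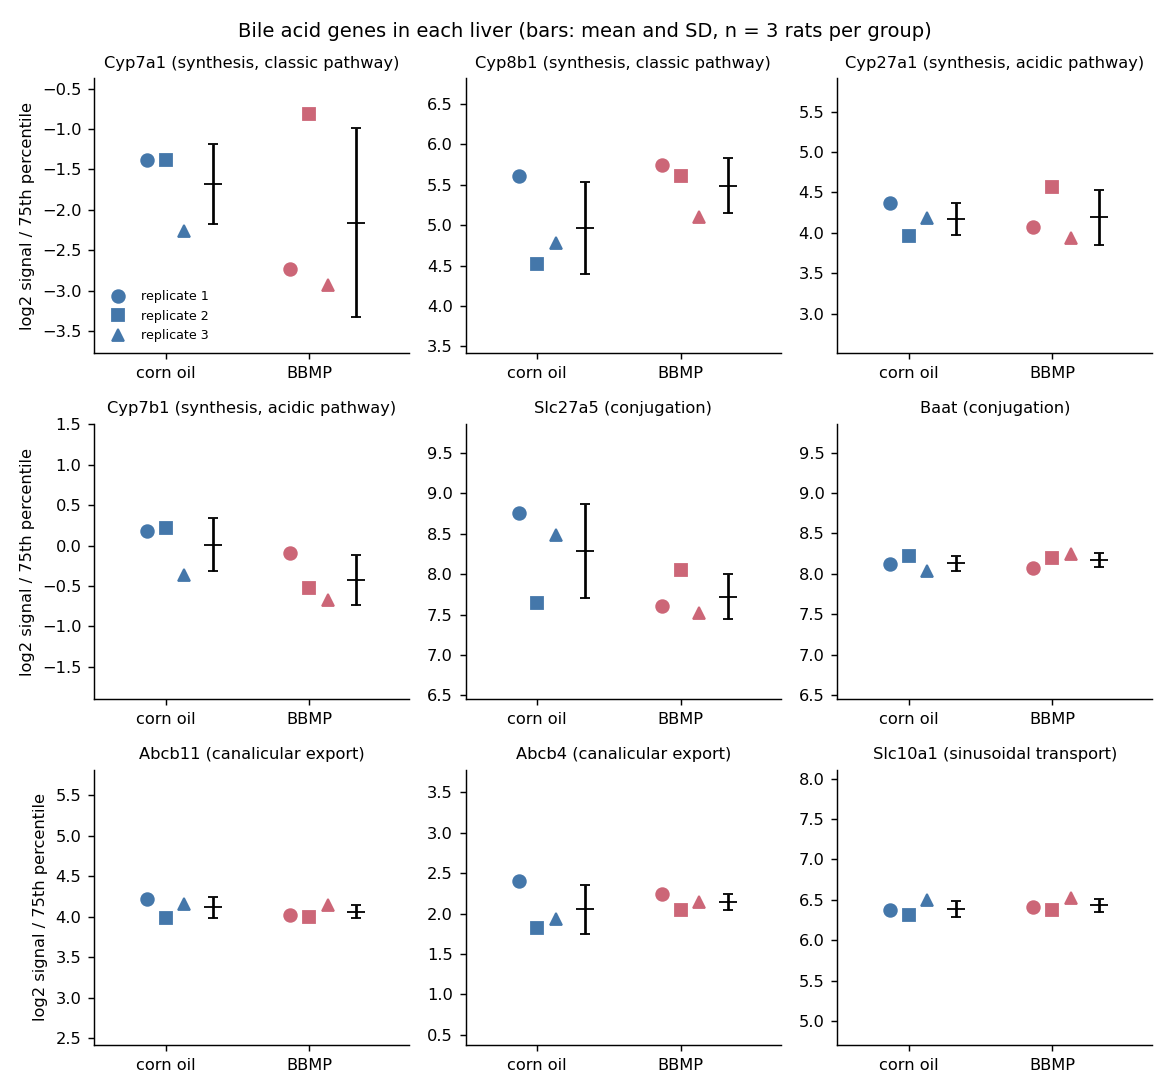
Log2 signal relative to the array's 75th percentile (y axis) of 9 bile acid genes in corn oil and BBMP livers (x axis), 1 point per rat with the shape giving its replicate number and bars giving the mean and SD of 3 rats. Every panel spans the same height on the log2 scale; Cyp7a1 has the widest scatter, and the points of Baat, Abcb11 and Slc10a1 lie close together in both groups.

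Cyp7a1, the rate-limiting enzyme of the classic pathway, varied more from rat to rat than any other of the 9 genes. Its log2 levels were -1.39, -1.38 and -2.26 in corn oil 1, 2 and 3 and -2.73, -0.82 and -2.93 in BBMP 1, 2 and 3. BBMP 2 thus had the highest level of all 6 livers, and BBMP 1 and BBMP 3 had the lowest. The mean was -1.68 ± 0.50 in corn oil and -2.16 ± 1.17 in BBMP livers (SD, n = 3). The difference was -0.48 ± 0.59 (SE; limma adjusted p = 0.783), with a 95% interval of -1.90 to 0.93, which is a ratio of BBMP to corn oil between 0.269 and 1.91. Single animals moved it: without BBMP 2 the difference was -1.15 (adjusted p = 0.512, unadjusted p = 0.0103) and without BBMP 3 it was -0.10 (adjusted p = 0.971). The within-group SD of 0.90 was larger than that of 98.7% of features, where the median feature had 0.18.

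Cyp8b1, which directs the classic pathway toward cholic acid, had levels of 5.61, 4.52 and 4.78 in corn oil and 5.75, 5.61 and 5.10 in BBMP livers. Corn oil 1 lay at the level of BBMP 2, and the other corn oil livers lay below every BBMP liver. The difference was 0.52 ± 0.31 (SE; limma adjusted p = 0.577, 95% interval -0.24 to 1.27). It was 0.84 without corn oil 1 (adjusted p = 0.383) and 0.29 without corn oil 2 (adjusted p = 0.892). The 2 classic enzymes did not follow each other from rat to rat: BBMP 1 was the highest of the 6 livers for Cyp8b1 and, with BBMP 3, one of the 2 lowest for Cyp7a1.

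The acidic pathway was covered by both of its hydroxylases. Cyp27a1, the mitochondrial sterol hydroxylase that opens this route and also acts on the side chain in the classic one, had levels of 4.37, 3.96 and 4.18 in corn oil and 4.07, 4.57 and 3.94 in BBMP livers. The highest and the lowest level were both in BBMP livers. Its difference was 0.02 ± 0.20 (SE; limma adjusted p = 0.975, 95% interval -0.45 to 0.50). Cyp7b1, the oxysterol hydroxylase of the same route, had levels of 0.18, 0.22 and -0.37 in corn oil and -0.09, -0.53 and -0.68 in BBMP livers. Here 2 BBMP livers lay below all corn oil livers, and BBMP 1 lay above corn oil 3. The difference was -0.44 ± 0.22 (SE; limma adjusted p = 0.516, 95% interval -0.98 to 0.09). Its second probe differed by -0.35 (adjusted p = 0.646 in the fit of every probe). It also had corn oil 3 as the lowest corn oil liver and BBMP 3 as the lowest of all, at -3.67.

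Conjugation takes 2 steps. Slc27a5, the bile acid CoA ligase that activates bile acids returning to the liver, had the most negative difference of the 9 genes. Its levels were 8.76, 7.64 and 8.48 in corn oil and 7.61, 8.05 and 7.52 in BBMP livers. Corn oil 2 lay among the BBMP livers, and the other corn oil livers lay above all of them. The difference was -0.57 ± 0.31 (SE; limma adjusted p = 0.540), a ratio of 0.674 with a 95% interval of 0.403 to 1.13. Without corn oil 2, the liver farthest from the BBMP livers on the main component, it was -0.90 (limma adjusted p = 0.592, unadjusted p = 0.00614). It was -0.33 without corn oil 1 (limma adjusted p = 0.692). A second probe, with 6.62, 5.21 and 6.30 against 5.31, 5.77 and 5.34, had a difference of -0.57 (adjusted p = 0.608 in the fit of every probe), and there corn oil 2 was the lowest of the 6 livers.

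Baat, which transfers taurine or glycine to the activated bile acid, carries out the other step. It was measured at 8.12, 8.22 and 8.04 in corn oil and 8.07, 8.19 and 8.25 in BBMP livers. The ranges largely coincided. Its difference was 0.04 ± 0.10 (SE; limma adjusted p = 0.904), a ratio of 1.03 with a 95% interval of 0.868 to 1.22. The within-group SD was 0.46 for Slc27a5, above that of 90.8% of features, and 0.09 for Baat, above that of 15.2%.

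Export into bile was represented by 2 ATP-driven transporters. Abcb11, the bile salt export pump, had levels of 4.22, 3.98 and 4.16 in corn oil and 4.02, 4.0 and 4.15 in BBMP livers, and all BBMP values lay inside the corn oil range. Its difference was -0.06 ± 0.11 (SE; limma adjusted p = 0.855), a ratio of 0.957 with a 95% interval of 0.799 to 1.15. Abcb4, which moves phosphatidylcholine into bile and so shields the ducts from bile acids, had 2.40, 1.82 and 1.93 against 2.24, 2.04 and 2.14. Again the BBMP values lay inside the corn oil range. The difference was 0.09 ± 0.17 (SE; limma adjusted p = 0.871, ratio 1.06, 95% interval 0.803 to 1.41).

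Slc10a1, the sodium-dependent uptake carrier NTCP of the sinusoidal membrane, was the most even of the 9 genes. Its levels were 6.37, 6.31 and 6.50 in corn oil and 6.41, 6.37 and 6.52 in BBMP livers. The difference was 0.04 ± 0.10 (SE; limma adjusted p = 0.902), a ratio of 1.03 with a 95% interval of 0.870 to 1.22. Its within-group SD of 0.09 was larger than that of only 13.8% of features. Slc51a, the partner subunit of Slc51b, is named after its values were seen: it had 2 probes, and neither was well above background in any of the 6 livers.

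The intervals sort the genes by what these arrays could resolve. For Cyp27a1, Baat, Abcb11, Abcb4 and Slc10a1 the 95% interval of the ratio lay between 0.731 and 1.41, so it left out a doubling and a halving. For Cyp7b1 it ran from 0.507 to 1.07. For Cyp7a1 and Slc27a5 it reached below a ratio of 0.5, and for Cyp8b1 it reached 2.42. These intervals are for single genes and are not adjusted for the number of features. They concern the difference between the groups, in which slide, scan and BBMP cannot be told apart.

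**Figure D2:**
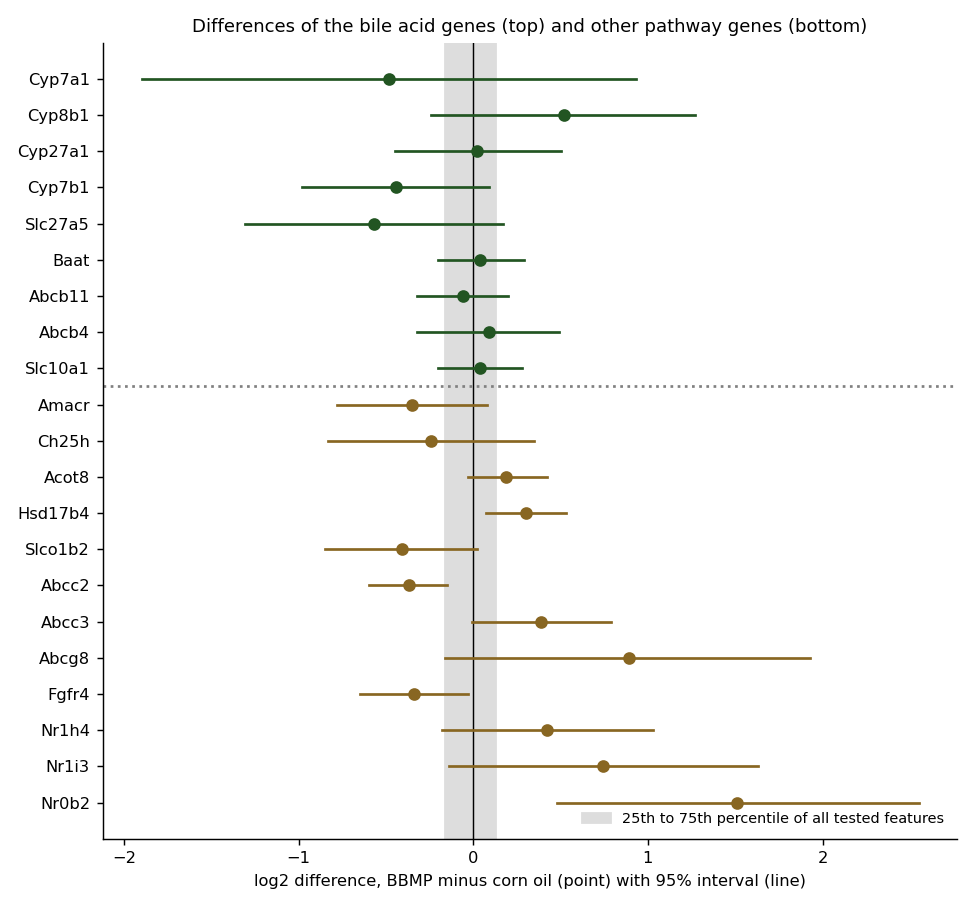
Log2 difference of BBMP minus corn oil livers (x axis; point) with its 95% interval from limma (line) for the 9 bile acid genes and, under the dotted line, 12 other genes of the pathway; the grey band runs from the 25th to the 75th percentile of all tested features, -0.16 to 0.13. Abcb11, Abcb4, Slc10a1 and Baat have short intervals around 0, Cyp7a1 has the longest of the 9, and Nr0b2 has the largest difference at 1.51.

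A wider list of 44 other genes of the pathway was described in the same fit. Of these 42 had a probe and 39 were tested: 22 had a difference above 0 and 17 below, with a median of 0.04. None passed the adjusted p in either direction. At an unadjusted p under 0.05 there were 2 above and 2 below, against 4.7% and 6.1% of all features, and the groups did not overlap for 3 above and 3 below, against 8.25% and 9.6%.

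Among the regulators, 12 of 15 were tested. Nr0b2, which encodes SHP, had levels of 5.98, 5.01 and 4.58 in corn oil and 6.69, 7.30 and 6.12 in BBMP livers. Every BBMP liver lay above every corn oil liver, by the least between BBMP 3 and corn oil 1. The difference was 1.51 ± 0.43 (SE; limma adjusted p = 0.404, unadjusted p = 0.0113), a ratio of 2.85 with a 95% interval of 1.39 to 5.86. Leaving out each liver in turn gave 1.21 to 1.91. The within-group SD of 0.65 was larger than that of 96.6% of features.

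Nr1h4, which encodes FXR, had levels of 4.54, 5.14 and 4.92 in corn oil and 5.17, 4.94 and 5.77 in BBMP livers. The groups overlapped, with BBMP 3 highest. The difference was 0.42 ± 0.25 (SE; limma adjusted p = 0.570), and the other 2 probes gave 0.50 and 0.37. It was 0.19 without BBMP 3 and 0.60 without BBMP 2. For Fgfr4, the receptor of the intestinal signal, the corn oil livers were close together at -0.24, -0.20 and -0.24 and the BBMP livers lay below them at -0.79, -0.51 and -0.38. That difference was -0.34 ± 0.13 (SE; limma adjusted p = 0.443, unadjusted p = 0.0372), and -0.22 without BBMP 1. No probe was matched to Klb. Nr1i3, which encodes the xenobiotic receptor CAR, had 3.76, 2.32 and 2.68 against 3.82, 3.78 and 3.40, with corn oil 1 inside the BBMP range and a difference of 0.74 ± 0.37 (SE; limma adjusted p = 0.511). Its other 3 probes gave 0.48 to 0.55. Without corn oil 1 the difference was 1.16 (adjusted p = 0.335, unadjusted p = 0.00147), and without corn oil 2 it was 0.44 (adjusted p = 0.839).

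Of 13 other synthesis enzymes, 12 were tested, with differences from -0.35 to 0.30. Hsd17b4, the peroxisomal enzyme that shortens the side chain together with Acox2, had 7.21, 7.06 and 7.20 in corn oil and 7.38, 7.48 and 7.49 in BBMP livers, without overlap. Its difference was 0.30 ± 0.10 (SE; limma adjusted p = 0.408, unadjusted p = 0.0195), and a second probe, at 0.13, overlapped between the groups. Acot8, a peroxisomal thioesterase, was at 4.13, 4.01 and 4.04 against 4.19, 4.25 and 4.31, again without overlap and with a difference of 0.19 ± 0.09 (SE; limma adjusted p = 0.501). A second Acot8 probe, also without overlap, differed by 0.36 (limma adjusted p = 0.429 in the fit of every probe). Amacr, the racemase that prepares the side chain, differed by -0.35 ± 0.18 (SE; limma adjusted p = 0.523), with corn oil 3 among the BBMP livers on its 3 probes, whose differences were -0.35, -0.49 and -0.42. With the first of these probes it was -0.54 without corn oil 3 and -0.21 without corn oil 1. Ch25h, which makes an oxysterol, differed by -0.24 ± 0.24 (SE; limma adjusted p = 0.741), and ranged from -0.46 without corn oil 2 to -0.06 without corn oil 1.

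Of 16 other transporters, 15 were tested. Abcc2, the canalicular pump for conjugated organic anions, was at 5.76, 5.80 and 5.69 in corn oil and 5.35, 5.32 and 5.45 in BBMP livers. The groups did not overlap, and the difference of -0.37 ± 0.09 (SE; limma adjusted p = 0.384) had the smallest unadjusted p of the wider list, 0.00589. This is a ratio of 0.771 with a 95% interval of 0.661 to 0.900. Abcc3, which exports conjugates back into blood, had -2.57, -2.95 and -3.06 against -2.34, -2.68 and -2.40. Corn oil 1 lay inside the BBMP range, and the difference was 0.39 ± 0.17 (SE; limma adjusted p = 0.470). Other Abcc3 probes gave 0.33, with overlap, and 0.67, without overlap (limma adjusted p = 0.582 and 0.437 in the fit of every probe). The probe at 0.67 was dim, and well above background in 0 corn oil and 3 BBMP livers. It passed the filter only through the BBMP livers, so its p and lack of overlap cannot count as support. Slco1b2, a sodium-independent uptake carrier, differed by -0.41 ± 0.18 (SE; limma adjusted p = 0.480), with levels of 5.47, 5.44 and 4.99 against 5.15, 4.77 and 4.73. Abcg8, a subunit of the sterol pump, differed by 0.89 ± 0.43 (SE; limma adjusted p = 0.508) on a dim probe that was well above background in 2 of 3 corn oil and 3 of 3 BBMP livers. That difference was 1.38 without corn oil 3, 0.47 without corn oil 2 and 0.17 with normexp background correction. The Abcg8 probe, too, passed the filter only through the BBMP livers.

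**Figure D3:**
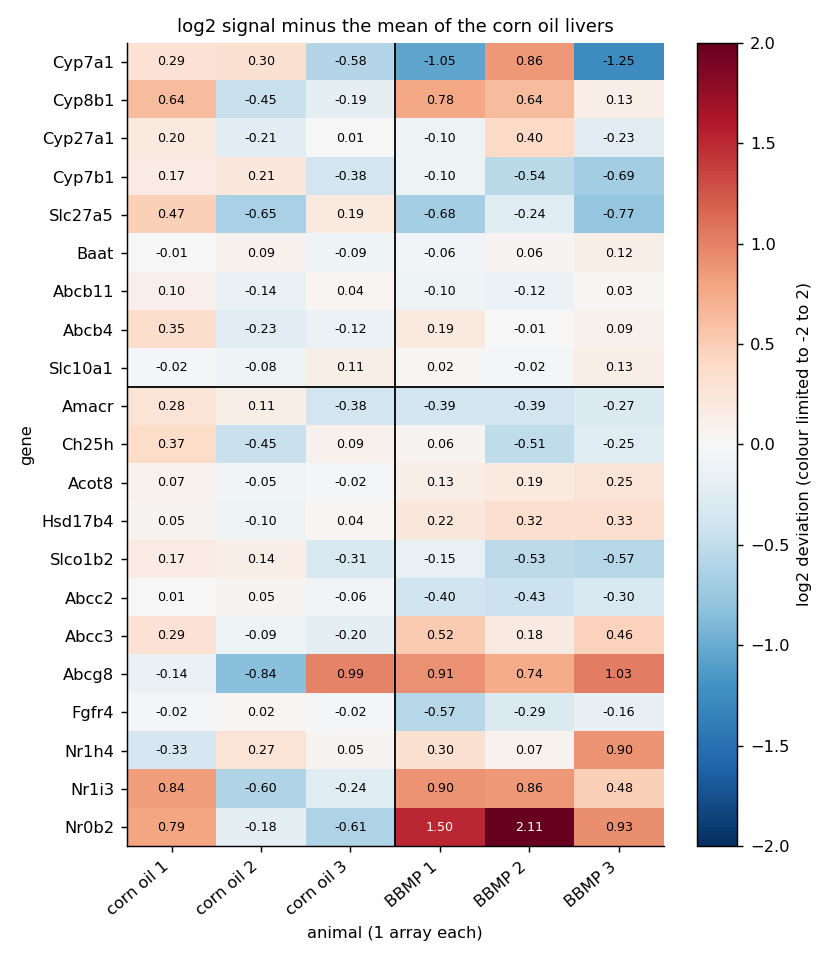
Log2 signal of each gene (rows) in each rat (columns) minus the mean of the corn oil livers, as colour and number; the 9 bile acid genes are above the line and 12 other pathway genes below. Corn oil 2 is the lowest corn oil liver for 6 of the 9 genes and the highest for 3, and Nr0b2 is above the corn oil mean in all BBMP livers.

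No animal was at one end of its group for all 9 genes. Corn oil 2 was the lowest corn oil liver for 6 of them, among them Cyp8b1, Slc27a5 and Abcb4, and the highest for 3, and corn oil 1 was the highest for 5 and the lowest for 0. Among the BBMP livers, BBMP 3 was the lowest for 5, BBMP 2 for 3 and BBMP 1 for 1, and each was the highest for 3. The median deviation of the 9 genes from the corn oil mean lay between -0.14 and 0.20 in corn oil livers and between -0.10 and 0.03 in BBMP livers.

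**Figure D4:**
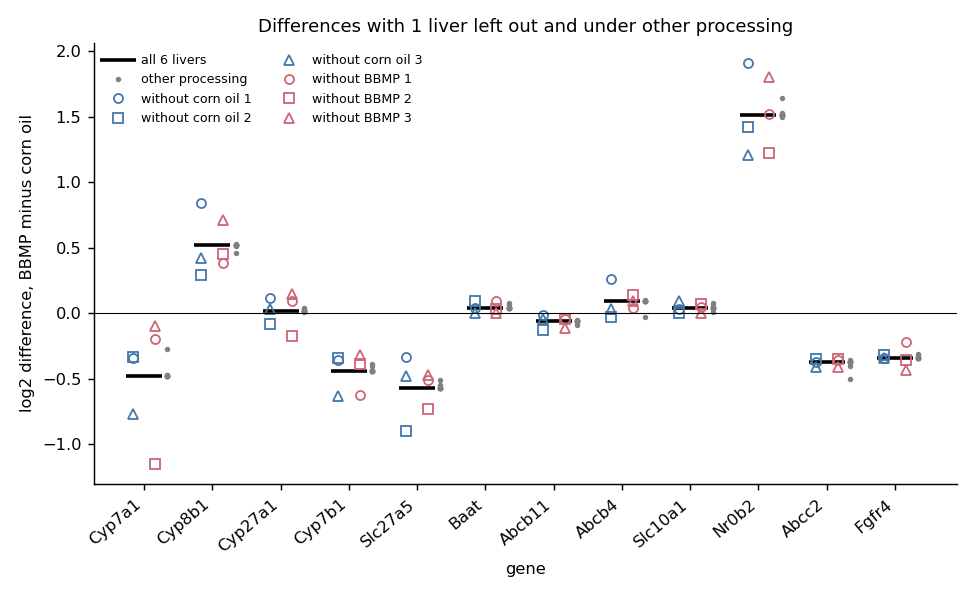
Log2 difference of BBMP minus corn oil livers (y axis) for the 9 bile acid genes and 3 other pathway genes (x axis): black bars for all 6 livers, open symbols with 1 liver left out, grey points for other processing. Leaving out BBMP 2 takes Cyp7a1 to -1.15 and leaving out corn oil 2 takes Slc27a5 to -0.90, while Baat, Abcb11 and Slc10a1 stay within 0.13 of 0.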

How the data were processed

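Expression was measured in 6 rat livers on Agilent arrays (design 035170). Per the file headers, the arrays were read with Feature Extraction 10.7.1.1, and the deposited scanner files hold background-subtracted spot intensity, not normalised between arrays. Agilent Feature Extraction 10.7 is also given in the submitters' processing notes. The authors' value table also holds intensity, scaled by 1 factor per array (close to the 75th percentile), and served as an alternative.

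Probes were named through unversioned accessions in the RefSeq table of GRCr8 (44.6% of 61573 named). Control and spike-in spots and outlier spots were left out. Log2 intensity minus log2 of the array's 75th percentile was tested with limma 3.58.1 in R 4.3.3 (lmFit, eBayes, two-sided, no covariate), with Benjamini-Hochberg adjustment over 28112 features. Probes had to be well above background in all 3 livers of at least 1 group. The probe with the highest mean stood for its gene, and a second fit took every probe. The fit was tested on simulated data.

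All 10 listed genes are named. Of 44 other pathway genes the text names Nr1h4, Nr0b2, Fgfr4, Klb, any past the threshold, and the 4 with the smallest p of each of 3 lists. Any other gene was picked with its values in view, and the text says so. Groups came from the labels. Members and lists were chosen with earlier results of these data known. The p-values measure the spread between 3 rats a group. Replicate numbers are not stated to pair rats, so the main fit had no block. Deviations of same-numbered rats correlated at 0.089, 0.016 and 0.072. Rats with different numbers were not compared, so these values cannot decide on pairing. One marker gene is not reported here.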

Additional observations from a re-analysis of the deposited data

How the results depend on the processing

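All 17 alternatives were planned, and normexp was run on the median spot signal, the column the scanner files used here carry. The number of the 9 bile acid genes past adjusted p 0.05 was 0 in every one, also with the replicate block, and their median difference was -0.03 to 0.04, or -0.08 to 0.04 with 1 liver left out. Over all features the number past the threshold was 2, and it was 0 with normexp, 0 with the filter on all 6 arrays, 0 with the unmoderated unequal-variance test, 0 with the replicate block and 1 without a filter (3252, 2835, 2034, 3235 and 3308 at an unadjusted p under 0.05); the cause was not tested. Leaving out 1 liver gave 0 to 4, with 0 without corn oil 3 and 4 without corn oil 2. Of 153 values of the 9 genes under alternatives, 145 kept their direction. Some alternatives, among them the changed filters, the replicate block and the unequal-variance test, repeat the main differences. No direction could turn in these, so the count overstates how stable the directions are. Abcb4 turned to -0.03 with normexp and ranged from -0.03 to 0.26 with 1 liver left out, Cyp27a1 from -0.17 to 0.15, Baat from 0 to 0.09 and Slc10a1 from 0 to 0.09. Of 203 values of the other named genes all kept their direction and 0 passed. Here too, the alternatives that repeat the main differences could turn no direction. Sizes moved: with 1 liver left out, Nr1i3 was 0.44 to 1.16, Nr1h4 0.19 to 0.60, Ch25h -0.46 to -0.06, Amacr -0.54 to -0.21 and Abcg8 0.47 to 1.38. Signal over background limits Abcg8, Slc51a, the dim probe of Abcc3 and the second probe of Slc10a2.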

Other observations

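Slc10a2, the apical sodium-dependent bile acid carrier that bile duct cells express in the liver, was set apart by 1 animal, and it is named here after its values were seen. Its log2 levels were -0.38, -0.14 and -0.15 in corn oil and -0.74, -0.68 and -4.16 in BBMP livers. All BBMP livers lay below all corn oil livers, and BBMP 3 lay far below the other 2. The difference was -1.63 ± 0.92 (SE; limma adjusted p = 0.552). A second, dim probe was clearly detected over background in 2 corn oil and 0 BBMP livers, so its BBMP levels have no order.

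The following bile duct markers were looked at after the values of Slc10a2 were seen. BBMP 3 was also the lowest liver for Spp1, at -5.19 against -3.64 to -1.49 in the other 5 livers. The gaps were smaller for Cftr, at -4.26 against -3.86 to -3.11, and for Krt7, at -3.12 against -3.03 to -2.88. BBMP 3 was not the lowest liver for the markers Krt19, at -2.70, Cldn4, at -1.83, and Epcam, at -0.03. Whether the amount of bile duct in the samples differed was not tested. Spp1 was not well above background in BBMP 3.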
